A study of Arabidopsis thaliana with 9 samples.

Results

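The 10 genes described here are the late genes of anthocyanin synthesis and decoration in Arabidopsis thaliana: DFR (AT5G42800), LDOX (AT4G22880), TT19 (AT5G17220), UGT75C1 (AT4G14090), UGT79B1 (AT5G54060), 5MAT (AT3G29590), 3AT1 (AT1G03940), 3AT2 (AT1G03495), SCPL10 (AT2G23000) and BAN (AT1G61720). They were chosen by locus identifier for their known roles, and are 10 of the 33655 features in the deposited table of read counts per gene. RNA-seq libraries had been made from whole seedlings aged 3 days and grown in darkness, with 3 libraries for each of 3 genotypes, all in the Col-0 background: the mutant spaQ, the mutant cop1-4 and wild type Col-0. All seeds had been chilled, given a short period of white light, kept in the dark, given a far-red pulse and returned to darkness, so all 3 genotypes share that light history. spaQ is the field's name for the mutant that lacks function of the 4 SPA genes, and the labels do not state its alleles. cop1-4 is known as a viable, partial loss-of-function allele, so it is not a null mutant.

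Anthocyanins are coloured flavonoid pigments made in the cytosol and stored in the vacuole. Early enzymes build a flavonoid skeleton, late enzymes turn it into an anthocyanidin, and decorating enzymes then add sugars and acyl groups to the pigment. In Arabidopsis the late genes are known targets of complexes of a MYB protein such as PAP1 or PAP2, a bHLH protein such as TT8, and the WD40 protein TTG1. COP1 and the SPA proteins act together in a ubiquitin ligase that holds back light responses in darkness, and PAP1 and PAP2 proteins are among its known substrates.

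The libraries held 22482588 to 38770474 counted reads. Replicates of a genotype differed by more than sampling noise, with chi-square values of 3.18 to 19.5 per degree of freedom. Transcripts of COP1 differed in cop1-4 from Col-0 by a log2 fold change of 0.01 (SE 0.10), and those of SPA1, SPA2, SPA3 and SPA4 differed in spaQ from Col-0 by 0.32, 0.06, 0.37 and 2.42. These values check neither label, because a mutated gene can still give countable transcripts. Levels are given below as CPM, counts scaled to library size with the trimmed mean of M-values, and a difference was called at an adjusted p below 0.05 in edgeR's quasi-likelihood test over 20779 tested genes.

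Promoter windows of 250 bases before the annotated start (RefSeq, TAIR10.1) are shown for 5 of the genes because their letters differ at the sequence elements that bZIP and bHLH proteins are known to bind. In each window, read 5′ to 3′ on the gene's strand, capitals mark CANNTG (the E-box) and ACGT matches, and the G-box CACGTG is a match to both. DFR and LDOX encode successive enzymes, UGT79B1 and SCPL10 are decorating enzymes, and BAN is the gene that stayed near 0 reads.
DFR at chr5:17166033-17166282, minus strand: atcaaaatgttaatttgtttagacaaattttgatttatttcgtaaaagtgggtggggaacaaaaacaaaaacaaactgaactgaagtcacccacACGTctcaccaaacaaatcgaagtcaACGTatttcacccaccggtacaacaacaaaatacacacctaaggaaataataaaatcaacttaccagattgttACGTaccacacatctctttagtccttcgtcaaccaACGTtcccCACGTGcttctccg
LDOX at chr4:12006210-12006459, minus strand: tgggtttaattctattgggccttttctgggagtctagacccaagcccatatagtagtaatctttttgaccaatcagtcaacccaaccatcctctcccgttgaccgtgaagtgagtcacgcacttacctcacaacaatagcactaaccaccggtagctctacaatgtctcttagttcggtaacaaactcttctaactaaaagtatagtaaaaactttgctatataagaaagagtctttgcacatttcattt
UGT79B1 at chr5:21938397-21938646, minus strand: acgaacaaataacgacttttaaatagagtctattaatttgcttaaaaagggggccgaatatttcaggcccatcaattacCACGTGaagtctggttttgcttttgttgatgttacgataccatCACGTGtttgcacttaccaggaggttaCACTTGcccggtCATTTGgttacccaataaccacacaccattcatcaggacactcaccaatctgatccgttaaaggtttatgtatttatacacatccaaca
SCPL10 at chr2:9791916-9792165, plus strand: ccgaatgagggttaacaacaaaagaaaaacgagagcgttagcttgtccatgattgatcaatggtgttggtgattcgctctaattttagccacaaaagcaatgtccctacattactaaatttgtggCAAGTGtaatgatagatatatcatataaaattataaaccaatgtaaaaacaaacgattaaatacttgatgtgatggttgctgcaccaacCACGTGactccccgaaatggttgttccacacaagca
BAN at chr1:22792804-22793053, minus strand: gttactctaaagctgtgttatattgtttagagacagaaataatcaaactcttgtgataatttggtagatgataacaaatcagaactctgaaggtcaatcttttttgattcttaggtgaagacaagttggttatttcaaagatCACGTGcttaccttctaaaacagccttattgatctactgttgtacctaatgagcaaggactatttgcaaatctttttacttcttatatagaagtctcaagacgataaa

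The letters CACGTG, searched on both strands, occurred in the windows of 4 of the 10 genes, against 6.49% of 27437 promoter windows of the same length. The match in DFR began 14 bases before the annotated start, that in SCPL10 36 bases before it, that in BAN 108 bases before it, and those in UGT79B1 171 and 128 bases before it. ACGT, which every G-box contains, was present in 4 of 10 windows against 44.1% of all windows, and DFR held 5 such matches. CANNTG occurred in 7 of 10 windows against 55.3% of all, and LDOX, UGT75C1 and 3AT1 held none. The MYB-type letters ANCNNAC occurred in 10 of 10 windows against 75.4% of all, and GACGTC in 0 of 10 against 2.27%. The windows of TT19, UGT75C1, 3AT1 and SCPL10 overlap a neighbouring gene. These matches describe letters only, and the motifs were present both in SCPL10, which differed strongly between genotypes, and in BAN, which was hardly counted.

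Of the 10 genes, 9 were tested and BAN had too few reads. In spaQ against Col-0, 9 were called higher, where 35.5% of all tested genes were, and all 9 by at least 2-fold, where 16.9% were. Of these, 3AT1 and 3AT2 were under 2-fold with library totals in place of the scaling (log2 fold changes of 0.90 and 0.84), and 3AT2 without Col-0 replicate 1 (0.99), though still called. In cop1-4 against Col-0, 6 were called higher and 3 (5MAT, 3AT1 and 3AT2) were not called, where 31.8% of all tested genes were called higher. Those 6 were higher by at least 2-fold, where 13.0% were. In spaQ against cop1-4, 9 were called higher, where 24.0% of all tested genes were, and 8 of these by at least 2-fold, where 4.04% were. DFR, LDOX, TT19, UGT79B1 and 5MAT passed the filter on low counts only through their spaQ libraries and so had to differ. UGT75C1 and SCPL10 passed only through libraries of spaQ and cop1-4, with 0 Col-0 libraries over the filter's cutoff. Their calls against Col-0 carry the same limit. The counts of calls are therefore a description. The 3 spaQ libraries all lay above the 3 Col-0 libraries for 9 of the genes, where they did for 37.1% of tested genes. In whole seedlings, a change in RNA per cell cannot be told apart from a change in the share of cells that make it.

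**Figure D1:**
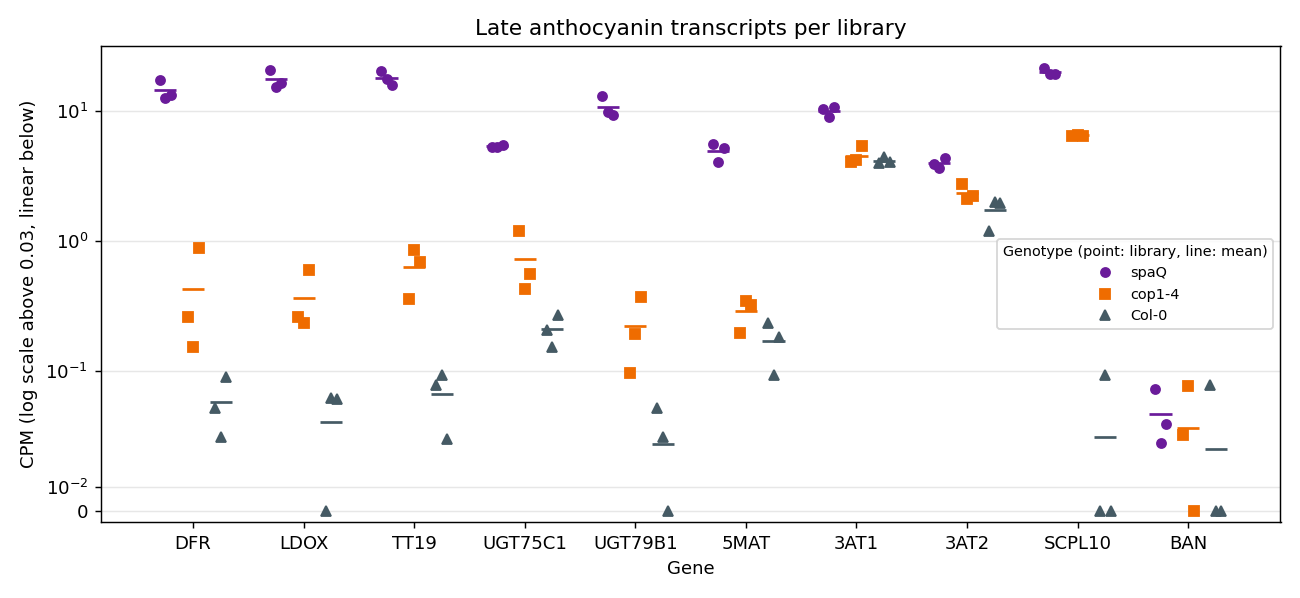
Level of each of the 10 genes in CPM (vertical axis, linear near 0 and logarithmic above) in every library; points are libraries and short lines are means of 3 libraries, with spaQ on the left, cop1-4 in the middle and Col-0 on the right. The 3 spaQ libraries lie above the other 6 for 9 genes, SCPL10 is raised in both mutants, and BAN stays under 0.1 CPM in every library.

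DFR, which reduces dihydroflavonols to leucoanthocyanidins and so opens the anthocyanin branch, lies at chr5:17164093-17166032 on the minus strand and has 6 exons. It was counted at 17.5, 12.6 and 13.4 CPM in the spaQ libraries, 0.261, 0.155 and 0.883 CPM in the cop1-4 libraries, and 0.0523, 0.0311 and 0.0910 CPM in the Col-0 libraries. The 3 genotypes did not overlap, and cop1-4 replicate 3 stood above the other cop1-4 libraries. The log2 fold change in spaQ against Col-0 was 7.86 (SE 0.40, edgeR adjusted p = 6.11e-11). In cop1-4 against Col-0 it was 2.71 (SE 0.73, edgeR adjusted p = 0.00452), and 1.80 without cop1-4 replicate 3. The Col-0 libraries held 6 DFR reads in all, so the fold changes against Col-0 rest on very few reads. Without that same cop1-4 library the log2 fold change in spaQ against cop1-4 was 6.06, against 5.16 with it.

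LDOX, the dioxygenase that makes anthocyanidins from leucoanthocyanidins, lies at chr4:12004726-12006209 on the minus strand and has 2 exons. Its levels were 20.8, 15.5 and 16.5 CPM in spaQ, 0.261, 0.233 and 0.604 CPM in cop1-4, and 0, 0.0622 and 0.0607 CPM in Col-0. As for DFR, the 3 genotypes formed separate ranges. The log2 fold change was 8.68 (SE 0.34) in spaQ against Col-0, with an edgeR adjusted p of 3.11e-12, and 3.04 (SE 0.69) in cop1-4 against Col-0, with an edgeR adjusted p of 0.00129. Without Col-0 replicate 1, which held 0 LDOX reads, these values were 8.06 and 2.42. The neighbouring gene AT4G22870 is 91.8% identical to LDOX over 462 coding bases, and it held 1 read over all 9 libraries.

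TT19 encodes a glutathione S-transferase that binds anthocyanins and is needed for their passage to the vacuole. The gene lies at chr5:5658416-5659661 on the plus strand. It was counted at 20.4, 17.7 and 16.0 CPM in spaQ, 0.359, 0.853 and 0.697 CPM in cop1-4, and 0.0784, 0.0933 and 0.0303 CPM in Col-0. Every spaQ library was higher than every cop1-4 library, and every cop1-4 library higher than every Col-0 library. The log2 fold change was 7.97 (SE 0.28) in spaQ and 3.12 (SE 0.49) in cop1-4 against Col-0, with edgeR adjusted p-values of 1.09e-12 and 4.87e-05. On the other strand AT5G17230 overlaps 9.85% of the exon bases of TT19, and the sources used here do not state whether counting used strand.

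The glycosyltransferase UGT79B1 adds xylose to the glucose at position 3 of the anthocyanin, and lies at chr5:21936746-21938396 on the minus strand in 1 exon. Its levels were 13.2, 9.81 and 9.34 CPM in spaQ, 0.0978, 0.194 and 0.372 CPM in cop1-4, and 0.0523, 0.0311 and 0 CPM in Col-0. With 3 UGT79B1 reads over the Col-0 libraries, the ratio of summed counts per scaled read was 370 in spaQ against Col-0 (95% exact interval 126 to 1800) and 7.07 in cop1-4 against Col-0 (2.02 to 37.9), and these intervals cover counting error only. The fitted log2 fold changes were 8.34 (SE 0.38) and 2.67 (SE 0.81), with edgeR adjusted p-values of 2.12e-11 and 0.00954, and became 9.10 and 3.42 without Col-0 replicate 1.

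UGT75C1, which adds glucose at position 5, lies at chr4:8122188-8123835 on the minus strand in 1 exon. It was counted at 5.33, 5.28 and 5.55 CPM in spaQ, 1.21, 0.427 and 0.558 CPM in cop1-4, and 0.209, 0.155 and 0.273 CPM in Col-0. The spaQ libraries were close together, with a mean of 5.39 ± 0.143 CPM (SD, n = 3), whereas cop1-4 replicate 1 was well above the other cop1-4 libraries. The log2 fold change was 4.63 (SE 0.32) in spaQ and 1.81 (SE 0.41) in cop1-4 against Col-0, with edgeR adjusted p-values of 3.13e-09 and 0.00137. Without cop1-4 replicate 1 the value in cop1-4 against Col-0 was 1.18 and remained called, with an edgeR adjusted p of 0.0174. Genes on the other strand overlap 27.1% of its exon bases.

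5MAT adds a malonyl group to the glucose at position 5, and lies at chr3:11398592-11400332 on the minus strand. It was counted at 5.59, 4.08 and 5.20 CPM in spaQ, 0.196, 0.349 and 0.325 CPM in cop1-4, and 0.235, 0.0933 and 0.182 CPM in Col-0. The spaQ libraries stood apart from the rest, while the ranges of cop1-4 and Col-0 overlapped. The log2 fold change in spaQ against Col-0 was 4.80 (SE 0.30, edgeR adjusted p = 8.12e-10), and in cop1-4 against Col-0 it was 0.69 (SE 0.46, edgeR adjusted p = 0.203). With 22 reads in cop1-4 and 18 in Col-0, the ratio of summed counts per scaled read was 1.62 with a 95% exact interval of 0.83 to 3.21, which includes 1.

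3AT1 and 3AT2 are near copies whose enzymes add a coumaroyl group to the glucose at position 3. 3AT1 lies at chr1:1009228-1011145 on the minus strand and 3AT2 at chr1:873166-874476 on the plus strand, each in 1 exon. Their coding sequences are 97.6% identical over 1041 aligned bases, and 39.9% of the 50-base windows of 3AT1 and 40.8% of those of 3AT2 recur elsewhere in the genome, so the split of reads between them is uncertain. 3AT1 was counted at 10.4, 9.04 and 10.8 CPM in spaQ, 4.04, 4.23 and 5.39 CPM in cop1-4, and 4.03, 4.45 and 4.06 CPM in Col-0. 3AT2 was counted at 3.94, 3.68 and 4.34 CPM in spaQ, 2.74, 2.13 and 2.23 CPM in cop1-4, and 1.20, 2.02 and 1.97 CPM in Col-0. Both genes were thus read in every Col-0 library, at 46 or more reads.

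The log2 fold change in spaQ against Col-0 was 1.27 (SE 0.13) for 3AT1 and 1.21 (SE 0.20) for 3AT2, with edgeR adjusted p-values of 4.55e-07 and 7.45e-05. In cop1-4 against Col-0, 3AT1 differed by 0.11 (SE 0.14, edgeR adjusted p = 0.506), with libraries that overlapped, and by -0.20 with library totals. For 3AT2 the 3 cop1-4 libraries lay above the 3 Col-0 libraries, as they did for 33.2% of all tested genes, but the log2 fold change of 0.47 (SE 0.22) was not called (edgeR adjusted p = 0.0718). It was called without Col-0 replicate 2, at 0.60 with an edgeR adjusted p of 0.0447.

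SCPL10 encodes a serine carboxypeptidase-like acyltransferase that transfers sinapoyl groups from sinapoylglucose to anthocyanins. It lies at chr2:9792166-9796408 on the plus strand with 14 exons, and its promoter window with the match CACGTG is printed above. The gene was counted at 21.5, 19.5 and 19.5 CPM in spaQ, 6.49, 6.63 and 6.51 CPM in cop1-4, and 0, 0.0933 and 0 CPM in Col-0. The cop1-4 libraries lay close together and far above Col-0, and the 3 reads in Col-0 all came from replicate 2. The ratio of summed counts per scaled read was 694 in spaQ against Col-0 (95% exact interval 237 to 3370) and 225 in cop1-4 against Col-0 (76.7 to 1100). The fitted log2 fold changes were 9.25 (SE 0.29) and 7.62 (SE 0.33), with edgeR adjusted p-values of 2.49e-13 and 1.86e-11. They were 8.65 and 7.02 without Col-0 replicate 1, and 12.23 and 10.60 without Col-0 replicate 2, when no Col-0 read is left.

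BAN, the anthocyanidin reductase that diverts anthocyanidins into the proanthocyanidins of the seed coat, lies at chr1:22790966-22792803 on the minus strand. It had 4 reads over the spaQ libraries, 3 over the cop1-4 libraries and 3 over the Col-0 libraries. The ratio of summed counts per scaled read in spaQ against Col-0 was 1.57, with a 95% exact interval of 0.265 to 10.7, which includes 1. Of 6 other genes of the seed coat pathway, TT1 and TT16 (seed coat transcription factors) had 0 reads in all libraries, and the summed level of the 6 was 2.74 to 3.22 CPM in spaQ, 2.88 to 4.76 CPM in cop1-4, and 2.43 to 3.02 CPM in Col-0. TT12, a vacuolar transporter that had too few reads for the fit, was counted at 11, 6 and 8 reads in spaQ, 10, 1 and 5 in cop1-4, and 3, 2 and 1 in Col-0. All its spaQ libraries lay above Col-0, as for 37.1% of tested genes. The ratio of its summed counts per scaled read was 4.89 (95% exact interval 1.96 to 14.6, for counting error only). The authors' deposited table of spaQ lists it at a log2 fold change of 2.04. TT2, the MYB factor that acts on BAN in seeds, had 1 read in spaQ, 0 in cop1-4 and 10 in Col-0. AHA10, a proton pump, and TT10, a laccase, were the 2 tested genes of that list, and in spaQ against Col-0 neither was called, although AHA10 was with library totals, at -0.64. TT10 was higher in cop1-4 than in Col-0 by a log2 fold change of 1.05 (SE 0.34, edgeR adjusted p = 0.0143), which missed the threshold once Col-0 replicate 1 was left out (edgeR adjusted p = 0.0549), without cop1-4 replicate 1 (0.0598) and with library totals in place of the scaling (0.066).

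**Figure D2:**
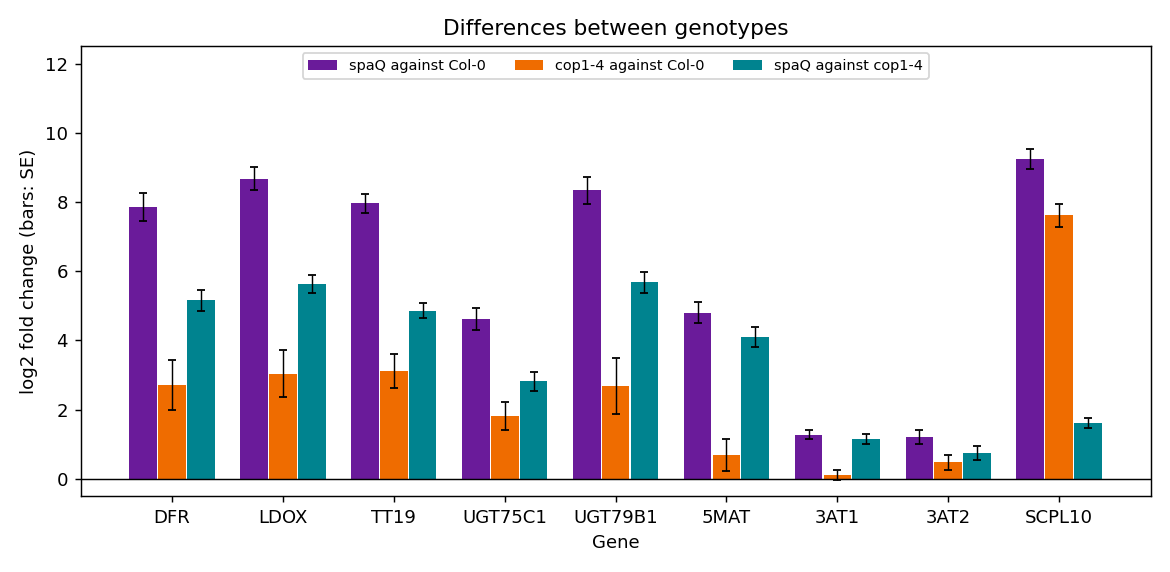
Fitted log2 fold change (vertical axis) of the 9 tested genes in spaQ against Col-0, cop1-4 against Col-0 and spaQ against cop1-4, with bars for the standard error. SCPL10 has a fold change of 7.62 in cop1-4 and 9.25 in spaQ, both on the log2 scale, whereas LDOX has 3.04 and 8.68; the fitted values of SCPL10 and UGT79B1 against Col-0 rest on 3 reads in Col-0.

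The direct comparison of the mutants showed how far cop1-4 fell short of spaQ at each step. The mean CPM in cop1-4 was 2.99% of the spaQ mean for DFR, 2.08% for LDOX, 3.52% for TT19, 2.05% for UGT79B1 and 5.85% for 5MAT. It was 13.6% for UGT75C1, 32.4% for SCPL10, 45.1% for 3AT1 and 59.4% for 3AT2. The Col-0 mean was already 41.4% of the spaQ mean for 3AT1 and 43.4% for 3AT2, neither called in cop1-4 against Col-0. Their high shares are therefore not a measure of a rise in cop1-4. For SCPL10 the Col-0 mean was 0.154% of the spaQ mean, and for the other tested genes at most 3.95%. In spaQ against cop1-4 the log2 fold change was 5.16 (SE 0.31) for DFR, 5.64 (SE 0.26) for LDOX, 4.86 (SE 0.21) for TT19 and 5.68 (SE 0.30) for UGT79B1. It was 4.10 (SE 0.29) for 5MAT, 2.82 (SE 0.28) for UGT75C1, 1.62 (SE 0.14) for SCPL10, 1.15 (SE 0.14) for 3AT1 and 0.74 (SE 0.20) for 3AT2. The edgeR adjusted p was 0.00752 for 3AT2, the least clear of these, and the 3 spaQ libraries lay above the 3 cop1-4 libraries for all 9, as for 28.7% of tested genes.

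Per kilobase of exon, the summed level of the 10 genes was 69.1 ± 7.83 CPM per kb in spaQ, 9.19 ± 0.718 in cop1-4 and 3.90 ± 0.389 in Col-0 (SD, n = 3 each). In spaQ the order of levels was TT19 at 16.5 ± 2.02 CPM per kb, LDOX at 12.6 ± 2.01, SCPL10 at 9.61 ± 0.55 and DFR at 9.54 ± 1.73. The libraries of TT19 and LDOX overlapped, as did those of SCPL10 and DFR. UGT79B1 at 6.53 ± 1.28 and 3AT1 at 5.26 ± 0.481 CPM per kb came next, each apart from its neighbours in the order. UGT75C1 at 3.27 ± 0.0872, 3AT2 at 3.04 ± 0.254 and 5MAT at 2.85 ± 0.45 CPM per kb followed with overlapping libraries, and BAN was last at 0.0328 ± 0.0163. In cop1-4 the order began with SCPL10 at 3.12 ± 0.0361, 3AT1 at 2.37 ± 0.381 and 3AT2 at 1.81 ± 0.25 CPM per kb, with no overlap between these libraries. The other 7 genes were at or under 0.581 CPM per kb on average. In Col-0, 3AT1 at 2.18 ± 0.122 and 3AT2 at 1.32 ± 0.351 CPM per kb led and did not overlap, and every other gene averaged at most 0.129 CPM per kb. The order of 3AT1 and 3AT2 is uncertain in every genotype, because the split of reads between these near copies is uncertain. The place of UGT75C1 is uncertain too, because genes on the other strand overlap 27.1% of its exon bases.

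The makeup of the summed level differed accordingly. 3AT1 and 3AT2 gave 12.1% ± 1.46 of it in spaQ, 45.5% ± 1.51 in cop1-4 and 89.5% ± 2.32 in Col-0 (SD, n = 3 each). SCPL10 gave 14.0% ± 0.753 in spaQ, 34.1% ± 2.8 in cop1-4 and 0.351% ± 0.608 in Col-0. DFR and LDOX together gave 31.8% ± 1.74 in spaQ, 5.74% ± 3.81 in cop1-4 and 1.70% ± 0.80 in Col-0. Ranges of the 3 genotypes did not overlap for the 3AT genes, and for DFR with LDOX the cop1-4 libraries reached 3.10% at the lowest while Col-0 reached 2.57% at the highest. Since 39.9% of the 50-base windows of 3AT1 and 40.8% of those of 3AT2 recur elsewhere, their summed level is uncertain as well. The treatment of such reads is not stated, so all the shares carry this limit.

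**Figure D3:**
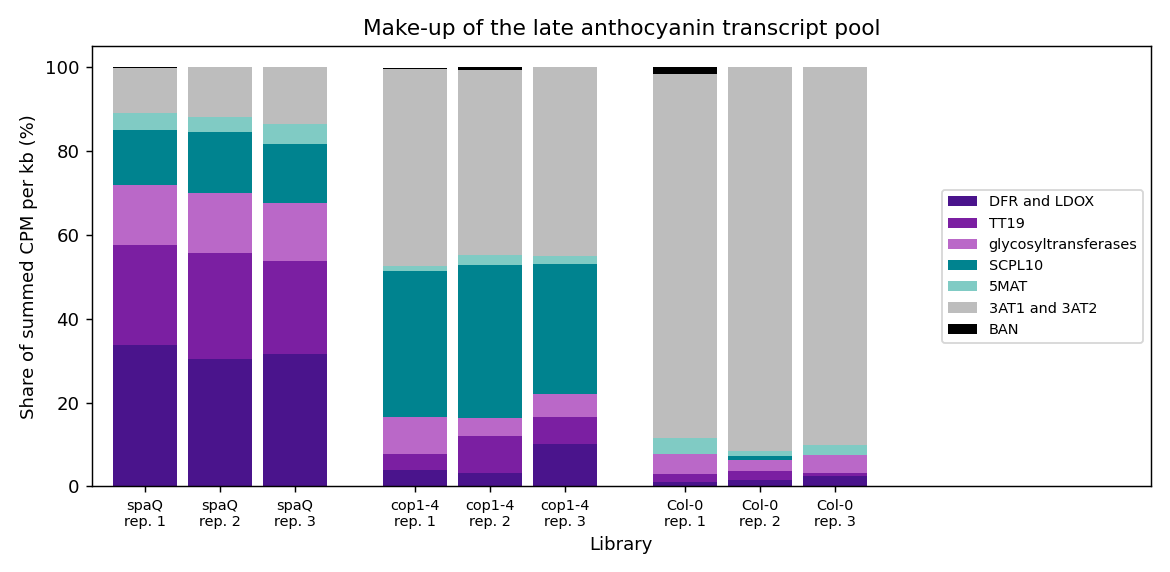
Share of the summed CPM per kb (vertical axis, percent) that each enzyme step gave in every library, with spaQ on the left and Col-0 on the right. The 3AT genes give 12.1% of the sum in spaQ, 45.5% in cop1-4 and 89.5% in Col-0 on average. All shares are uncertain to the extent that reads of the 3AT genes match elsewhere in the genome.

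SCPL10 lies in a run of related SCPL genes on chromosome 2, in the order SCPL12, SCPL11, SCPL13, SNG1, SCPL10 and SCPL9. Its coding sequence is 83.5% to 86.6% identical to theirs, but 1.47% of its 50-base windows recur elsewhere. Of its neighbours in this run, SNG1 was also higher in both mutants than in Col-0, and SCPL9, SCPL11 and SCPL12 were lower. SNG1, which makes sinapoylmalate, was counted at 533, 527 and 578 CPM in spaQ, 744, 779 and 798 CPM in cop1-4, and 161, 155 and 153 CPM in Col-0. Its log2 fold change was 1.81 (SE 0.08) in spaQ and 2.31 (SE 0.08) in cop1-4 against Col-0, both called (edgeR adjusted p of 1.09e-11 and 1.61e-12), and -0.50 (SE 0.08) in spaQ against cop1-4, opposite in sign to SCPL10. SCPL9, on its other side, fell by 0.99 in spaQ and by 1.33 in cop1-4 on the log2 scale, and SCPL11 and SCPL12 also fell in both. SCPL13 differed by -0.05 in spaQ, where it was not called (with library totals it was, at -0.42), and rose by 1.31 in cop1-4. Within 1 gene cluster, then, levels were higher, lower and not called in spaQ against Col-0.

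**Figure D4:**
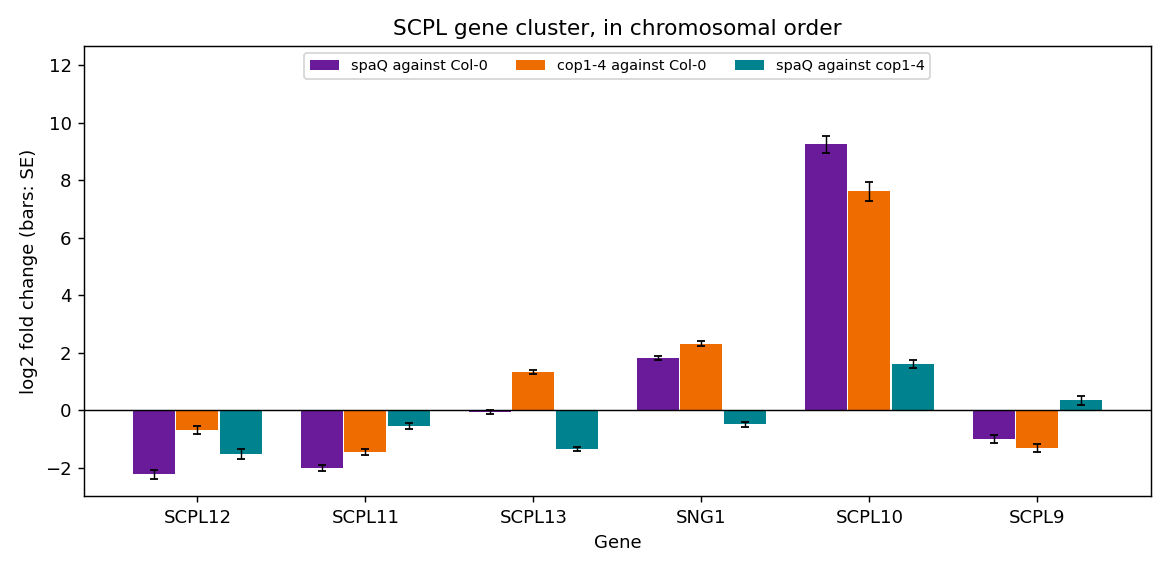
Fitted log2 fold change (vertical axis, bars show the standard error) of the 6 SCPL genes in their order along chromosome 2, for spaQ against Col-0 and the other 2 comparisons. SCPL10 stands at 9.25 and 7.62 in the mutants while of its immediate neighbours SNG1 is at 1.81 and 2.31 and SCPL9 at -0.99 and -1.33.

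Other copies of the decorating enzymes were read as well. UGT79B2, a relative of UGT79B1, rose in spaQ by 3.93 (SE 0.28) and in cop1-4 by 1.55 (SE 0.33) on the log2 scale, both called (edgeR adjusted p = 3.62e-09 and 0.000834), though 19.5% of its 50-base windows recur elsewhere. PMAT1, a malonyltransferase related to 5MAT, rose by 1.58 in spaQ and by 0.67 in cop1-4. Of the 3 genes 63.8% to 65.1% identical to 5MAT in coding sequence, AT3G29635 fell in both mutants, while AT3G29670 was higher in cop1-4 by 2.81 and AT3G29680 by 1.08, and neither was called in spaQ against Col-0. The call of AT3G29680 in cop1-4 was lost with library totals (edgeR adjusted p = 0.0733) and without Col-0 replicate 2 (0.0511) or 3 (0.0596). In spaQ, AT3G29670 was called lower without spaQ replicate 3, at -1.80, and AT3G29680 without spaQ replicate 2, at -1.74, and both with library totals, at -1.20 and -1.37. Of the 16 related genes 12 were tested. In spaQ 4 were higher and 5 lower, where 35.5% of all tested genes were called higher and 36.1% lower. In cop1-4, 7 were higher and 5 lower, where 31.8% were called higher and 30.3% lower.

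Genes of sinapate and sinapoylglucose synthesis were measured too, together with BGLU10. UGT84A2, which makes sinapoylglucose, the donor used by SCPL10, was counted at 102, 82.4 and 96.8 CPM in spaQ, 24.7, 24.7 and 26 CPM in cop1-4, and 30.1, 26.2 and 25.3 CPM in Col-0. It rose in spaQ against Col-0 by a log2 fold change of 1.78 (SE 0.09, edgeR adjusted p = 1e-10) and differed by -0.12 (SE 0.10, edgeR adjusted p = 0.302) in cop1-4, where library totals gave -0.43 and a call. FAH1, a hydroxylase needed for sinapate, rose by 3.51 in spaQ and by 1.45 in cop1-4, and BGLU10, which adds glucose to acylated anthocyanins, rose by 1.49 and 1.14. REF1, an aldehyde dehydrogenase of sinapate synthesis, fell by 0.44 in spaQ and by 0.51 in cop1-4. In all 3 of 4 genes rose and 1 fell in spaQ, where 35.5% of all tested genes were called higher and 36.1% lower. In cop1-4, 2 rose and 1 fell, where 31.8% were called higher and 30.3% lower.

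Of the 13 genes of the early pathway and flavonol branch, 10 were tested. In spaQ against Col-0, 10 were higher and 0 lower, where 35.5% of all tested genes were called higher. Their median log2 fold change was 4.36 beside -0.02 for all tested genes. In cop1-4 against Col-0, 7 were higher and 1 lower, where 31.8% were called higher and 30.3% lower. The median there was 1.48 beside 0.01. UGT78D2, which adds glucose at position 3 of flavonols and anthocyanins, rose by 4.17 in spaQ and by 2.67 in cop1-4, FLS1 (flavonol synthase) by 5.08 and 1.76, CHIL, a non-catalytic chalcone isomerase relative, by 5.04 and 2.22, and CHI (chalcone isomerase) by 4.55 and 2.00. The 1 gene that was lower in cop1-4, named after its values were seen, was the hydroxylase gene AT5G07990, at -0.99 (SE 0.20), against 1.45 (SE 0.17) in spaQ. In spaQ against cop1-4, 10 were higher, where 24.0% of all tested genes were. The F3H gene, AT3G51240, the step before DFR, was counted at 1.86, 1.74 and 3.56 CPM in spaQ, 0.391, 0.737 and 0.651 CPM in cop1-4, and 0.209, 0.0622 and 0 CPM in Col-0, and an antisense transcript overlaps 93.8% of its exon bases. Whether counting used strand is not stated, so these low F3H levels may not be its true levels.

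Of 19 listed regulators of the flavonoid pathway, 17 were tested, and these include flavonol MYBs beside regulators of the late genes. MYB113 and MYB114, relatives of PAP1 and PAP2, had 0 reads in all 9 libraries, which does not show that their transcripts were absent. In spaQ against Col-0, 15 were higher and 1 lower, where 35.5% of all tested genes were called higher and 36.1% lower. In cop1-4 against Col-0, 9 were higher and 4 lower, where 31.8% were called higher and 30.3% lower. In spaQ against cop1-4, 10 were higher and 2 lower, where 24.0% of all tested genes were called higher and 23.5% lower. TT8, the bHLH partner in the late-gene complex, was counted at 9.35, 9.36 and 6.80 CPM in spaQ, 0.489, 0.388 and 0.139 CPM in cop1-4, and 0.288, 0.0622 and 0 CPM in Col-0. Its log2 fold change was 6.04 (SE 0.42, edgeR adjusted p = 2.96e-09) in spaQ against Col-0, and 7.93 without Col-0 replicate 1. In cop1-4 against Col-0 it was 1.48 (SE 0.68, edgeR adjusted p = 0.0718), with overlapping libraries, and it was called without Col-0 replicate 1 at 3.36 or without cop1-4 replicate 3 at 1.79. TT8, PAP2 and the flavonol MYB gene MYB11 passed the filter on low counts only with their spaQ libraries. Their calls in spaQ carry the limit given above for the late genes, and the counts of calls in this list are a description too.

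PAP1 was counted at 2.59, 1.43 and 2.23 CPM in spaQ, 0.196, 0.155 and 0.279 CPM in cop1-4, and 0.654, 0.466 and 0.485 CPM in Col-0. It was thus higher in spaQ by a log2 fold change of 1.93 (SE 0.30, edgeR adjusted p = 3.56e-05) and lower in cop1-4 by a log2 fold change of -1.37 (SE 0.43, edgeR adjusted p = 0.0125), a call that was lost without cop1-4 replicate 2 (edgeR adjusted p = 0.0516). PAP2 rose in spaQ by 1.96 (SE 0.39, edgeR adjusted p = 0.000328) and in cop1-4 differed by -0.31 (SE 0.50, edgeR adjusted p = 0.61). The repressor MYBL2 was counted at 86.3 to 109 CPM in spaQ, 160 to 198 CPM in cop1-4, and 21.7 to 26.7 CPM in Col-0, with no overlap. It rose by 2.02 (SE 0.11) in spaQ and by 2.93 (SE 0.12) in cop1-4, and was lower in spaQ than in cop1-4 by -0.91 (SE 0.11, edgeR adjusted p = 8.06e-06). As a share of the spaQ mean, the level in cop1-4 was 3.99% for TT8, 10.1% for PAP1, 19.8% for PAP2, 93.9% for EGL3, 96.6% for GL3, 98.5% for TTG1 and 188% for MYBL2. TTG1, the WD40 member of the complex, was counted at 40.2, 39.2 and 44.0 CPM in spaQ, 40.2, 39.3 and 42.1 CPM in cop1-4, and 20.3, 19.3 and 22.8 CPM in Col-0. It rose by a log2 fold change of 0.98 (SE 0.08) in spaQ and 0.96 (SE 0.08) in cop1-4 against Col-0, with edgeR adjusted p-values of 3.61e-08 and 7.49e-08, and was not called between the mutants. GL3 and EGL3, bHLH relatives of TT8, were called higher and lower in both mutants, but the GL3 calls were lost with library totals (edgeR adjusted p = 0.0786 in spaQ and 0.0884 in cop1-4). The GL3 call in cop1-4 was also lost without Col-0 replicate 1 (0.0741) or without either of cop1-4 replicates 1 and 3 (0.0616 and 0.0609 by edgeR), and the EGL3 call in spaQ without spaQ replicate 1 or 3 (0.05 and 0.0609 by edgeR). Among the regulators with the lowest adjusted p, HYH, the close relative of the bZIP factor HY5, rose by 4.53 in spaQ and by 2.98 in cop1-4, LBD38, a LOB-domain factor, by 1.92 and 1.46, and MYB12, a flavonol MYB, by 5.98 and 3.25.

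**Figure D5:**
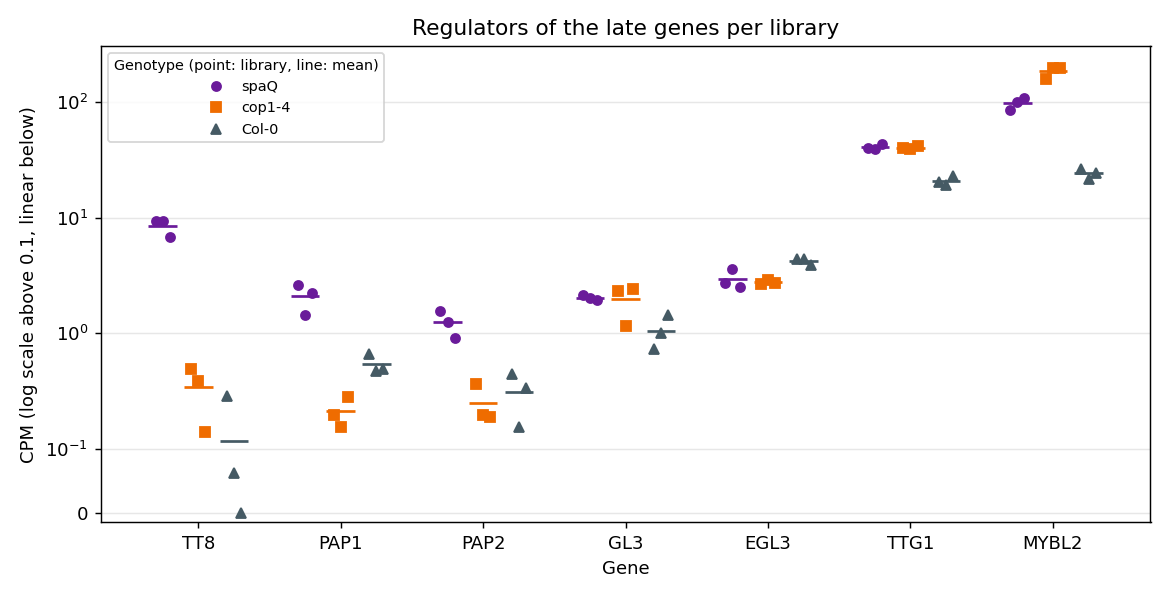
Level in CPM (vertical axis, linear near 0 and logarithmic above) of regulators in each library, with spaQ on the left and Col-0 on the right; points are libraries and lines means. TT8 and PAP1 are highest in spaQ, whereas MYBL2 is highest in cop1-4, at 160 to 198 CPM against 21.7 to 26.7 CPM in Col-0.

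The 5 genes outside these 10 whose pattern was closest to their mean log2 CPM were FLS1, GR1, J3, PES1 and NIT1, with Pearson r of 0.9984, 0.9961, 0.996, 0.9958 and 0.9957 over the 9 libraries, among 16788 candidates. These r values are a description, because the libraries form 3 groups, and r takes no account of the size of the change: the log2 fold change in spaQ against Col-0 was 5.08 for FLS1 but 0.59 for J3. Of the genes themselves, r with the mean ran from 0.8717 for SCPL10 and 0.9151 for 3AT2 to 0.9935 for TT19. That mean includes each of these genes, which raises their r, so these values cannot be set beside those of the outside genes.

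Seed storage transcripts differed between the genotypes in the same libraries, and their part in the results above was not tested. The summed level of 8 seed genes was 136 to 442 CPM in spaQ, 25.3 to 50 CPM in cop1-4 and 466 to 516 CPM in Col-0. Against Col-0, 6 of the 8 were lower in spaQ, where 36.1% of all tested genes were, and 8 were lower in cop1-4, where 30.3% were. The 2 not called in spaQ were CRU1 and CRU3, at log2 fold changes of -0.38 and -0.68. They had the highest spaQ levels of the 8, with means of 155 and 110 CPM. The 4 clearest in spaQ were SESA4, CRU2, SESA1 and SESA3, at -3.43, -3.87, -4.13 and -3.21. Without spaQ replicate 1, CRU2, SESA1 and SESA3 were at -4.49, -5.01 and -3.90. spaQ replicate 1 was highest in these seed transcripts among the spaQ libraries, and it was also highest in DFR, LDOX, TT19, UGT79B1, 5MAT and SCPL10. Without that library 9 of the genes were called higher in spaQ against Col-0. Whether the levels of the seed transcripts and of the late genes are linked was not tested.

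The authors' deposited table of spaQ against the wild type lists 9 of the 10 genes, with log2 fold changes of 1.19 for 3AT2 to 8.72 for SCPL10. Their deposited table of cop1-4 against the wild type lists 6 of the 10, from 1.71 for UGT75C1 to 7.07 for SCPL10, and does not list 5MAT, 3AT1, 3AT2 or BAN. The smallest log2 change in either table is 1 in size. The authors' deposited table of cop1-4 gives DFR at 2.35 and the authors' table of spaQ gives DFR at 7.06.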

How the data were processed

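Reads per gene were counted in 9 libraries of dark-grown seedlings, 3 each of spaQ, cop1-4 and Col-0. The authors deposited one table of counts per gene, and 2 tables of their own comparisons that hold log2 fold changes and adjusted p-values (FDR) computed by the authors; the build TAIR10 and the tools HTSeq, TopHat, Bowtie2, FastQC and DESeq2 are named in the submitters' processing notes. The sources used here give no versions, strand setting or treatment of reads that match more than 1 place. Genes were matched by locus identifier, and all 76 listed genes were found in RefSeq's TAIR10.1 annotation, which gave exon lengths, promoter windows and coordinates. The counts hold no coordinates.

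Counts were fitted with edgeR 4.0.16 (limma 3.58.1, R 4.3.3) by the quasi-likelihood test: TMM scaling, filterByExpr on the 3 genotypes, all 9 libraries in one fit with 6 residual degrees of freedom, and Benjamini-Hochberg adjustment over 20779 genes. Standard errors were taken as the log2 fold change divided by the square root of F. Where a group had 3 or fewer reads, or where stated, the ratio of summed counts per scaled read is given with an exact binomial interval at 95%. Such intervals cover counting error only, and not the spread between libraries.

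The members and all lists were chosen with earlier results of these data known. Every member is described, and of each other list the 4 genes with the lowest adjusted p in spaQ against Col-0 are named, plus named relatives and regulators. Nothing in the labels says that replicates were sown apart; the spread behind each p-value may therefore be technical. Same-numbered libraries did not deviate together (r of -0.149 to 0.163), so the numbers were not treated as pairs. Library totals instead of TMM, DESeq2 1.42.0, other filters, a replicate block, 6-library fits and leaving out each library were run as alternatives.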

Additional observations from a re-analysis of the deposited data

How the results depend on the processing

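Under every alternative run, 9 of the genes were called higher in spaQ against Col-0 and 9 in spaQ against cop1-4. In cop1-4 against Col-0 the number called was 6, and 6 to 7 when 1 library was left out, but 2 with only the 6 libraries compared, where DFR, LDOX, TT19, UGT79B1 and 5MAT fell under the filter on low counts. With the replicate number as a block the counts were 9, 6 and 9, the same numbers as without it. Library totals in place of TMM moved the median of all genes to -0.39 in spaQ and -0.31 in cop1-4 against Col-0, and -0.07 between the mutants, and the share of higher calls to 29.9%, 28.5% and 42.5%, against 49.6%, 51.2% and 50.5% with TMM. With library totals 3AT1 in cop1-4 against Col-0 was -0.20, and it was -0.01 to 0.20 with 1 library left out. AHA10 there was -0.22 with library totals and -0.20 to 0.23 with 1 library left out, and PAP2 -0.72 to 0.05. SCPL13 in spaQ against Col-0 was -0.08 to 0 with 1 library left out. Between spaQ and cop1-4, CRU2 was -0.04 with library totals and -0.60 to 0.34 with 1 left out, and SESA3 -0.95 to 0.20. There TTG1 was -0.04 and GL3 0 with library totals, and with 1 left out TTG1 was -0.03 to 0.06, GL3 -0.22 to 0.21 and EGL3 -0.08 to 0.21. For these sign changes the cause was not tested. TT8 in cop1-4 against Col-0 passed when no low-count filter was used (edgeR adjusted p = 0.0433). Reads per library limit DFR, LDOX, TT19, UGT79B1, 5MAT, SCPL10 and BAN most, since each held 3 to 18 reads over Col-0.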
